A study of Mus musculus with 6 samples.

Results

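The 10 genes described here carry out MHC class I and class II antigen presentation: B2m, Tap1, Tap2, Psmb8, Psmb9, H2-K1 and H2-D1 for class I, and Cd74, H2-Aa and H2-Ab1 for class II. They were chosen by name from the known pathway, out of 20656 genes with a symbol on the array, and 12 of the 39409 probes carried their names. The data came from 6 single-colour mouse oligonucleotide arrays with 1 array per group, in a study of neurons induced from fibroblasts by Tet3, an enzyme that oxidizes methylated cytosine. The cells induced by Tet3 were fibroblasts infected with adenoviral supernatants on 2 successive days in the presence of polybrene, kept in an intermediate medium, and taken at 1, 3, 5 and 7 dpi. Part of their medium was replaced by neuronal medium with forskolin on days 3 and 5 after the second infection. The other arrays held primary mouse embryonic neurons and MEF, the untreated embryonic fibroblasts from which the induced cells were made. All samples carry the age E13.5, and the fibroblasts came from ICR mice, an outbred stock. Fibroblasts infected with an empty or unrelated virus were not part of the groups, so effects of the infection and of Tet3 cannot be told apart in any comparison of dpi with MEF. Effects of the media given to the induced cells cannot be told apart from these either.

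MHC class I molecules show peptides from a cell's own proteins to CD8 T cells. Each consists of a heavy chain, such as those encoded by H2-K1 and H2-D1, and the light chain beta-2 microglobulin from B2m. The peptides are cut by proteasomes, whose catalytic subunits can be exchanged for the immunoproteasome subunits encoded by Psmb8 and Psmb9, and are pumped into the endoplasmic reticulum by the transporter made of Tap1 and Tap2. MHC class II molecules, built from an alpha chain (H2-Aa) and a beta chain (H2-Ab1) with the invariant chain Cd74 as their chaperone, are made mainly by professional antigen-presenting cells. Interferons induce both pathways, with the transactivators Nlrc5 for class I and Ciita for class II, and neurons are known for low class I levels.

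By RefSeq annotation of GRCm38.p6, 8 of the 10 genes lie in the MHC on chromosome 17, and B2m lies at chr2:122147687-122153082. Within the MHC, H2-K1 spans chr17:33996012-34000619, Psmb9 chr17:34182030-34187330, Tap1 chr17:34187556-34197225, Psmb8 chr17:34198195-34201454 and Tap2 chr17:34204479-34216321. H2-Ab1 spans chr17:34263227-34269418, H2-Aa chr17:34282744-34287823 and H2-D1 chr17:35263094-35267497. Promoter sequences from RefSeq (GRCm38.p6) were matched by symbol for 7 members, and Tap2, Cd74 and H2-Ab1 had no entry. The sequences below are shown because they carry the letters that interferon-regulated class I promoters are known for, next to a shared start region and a class II promoter. B2m and H2-D1 are given as the 250 bases before the start, read on the strand of the gene. In B2m (chr2:122147437-122147686, plus strand), H2-K1 (chr17:34000430-34000458, minus strand, the stretch holding both motifs) and H2-D1 (chr17:35262844-35263093, plus strand), capitals mark the interferon regulatory factor core AANNGAAA and the NF-kappaB motif. In H2-Aa (chr17:34287824-34288073, minus strand, 250 bases), capitals mark CCAAT and the cyclic AMP response half-site TGACG. Psmb9 and Tap1 are transcribed away from each other, and the 225 bases between their starts (chr17:34187331-34187555, plus strand, in the direction of Tap1) are shown with CCAAT in capitals.
B2m: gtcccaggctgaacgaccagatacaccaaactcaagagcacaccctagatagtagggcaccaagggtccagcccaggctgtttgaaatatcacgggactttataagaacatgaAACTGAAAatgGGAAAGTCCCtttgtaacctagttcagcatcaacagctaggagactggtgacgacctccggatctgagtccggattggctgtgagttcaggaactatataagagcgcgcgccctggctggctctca
H2-K1: GGGGATTCCCCatctccacagTTTCACTT
H2-D1: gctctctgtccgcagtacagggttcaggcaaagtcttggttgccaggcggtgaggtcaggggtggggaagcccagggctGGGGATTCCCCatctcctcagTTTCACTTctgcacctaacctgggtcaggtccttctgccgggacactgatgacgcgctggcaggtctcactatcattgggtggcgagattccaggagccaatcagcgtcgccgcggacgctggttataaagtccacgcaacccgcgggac
H2-Aa: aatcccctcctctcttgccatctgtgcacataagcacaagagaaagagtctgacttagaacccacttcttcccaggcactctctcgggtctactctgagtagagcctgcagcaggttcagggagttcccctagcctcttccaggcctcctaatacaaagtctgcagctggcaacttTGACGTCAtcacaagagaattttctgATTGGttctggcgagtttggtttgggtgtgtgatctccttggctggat
Psmb9-Tap1: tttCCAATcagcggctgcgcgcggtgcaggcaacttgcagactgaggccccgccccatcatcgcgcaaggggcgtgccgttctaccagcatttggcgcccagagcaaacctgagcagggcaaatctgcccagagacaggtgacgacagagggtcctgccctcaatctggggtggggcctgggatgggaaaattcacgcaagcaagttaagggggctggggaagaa

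The motifs were searched on both strands in windows of 300 bases, from 250 before to 50 after each start. AANNGAAA was present in 23.9% of all 32851 such windows, the NF-kappaB motif in 8.46%, CCAAT in 37.4% and TGACG in 20.8%. The windows of B2m, H2-K1, H2-D1 and H2-Aa held at least 1 match to each of the 4 motifs. The windows of Tap1 and Psmb9 held no match to the first 2 motifs, and that of Psmb8 held no match to any of the 4. The upstream stretches of H2-K1 and H2-D1 aligned over 177 bases, of which 161 were identical (91.0%). A match describes the letters in the window and is neither a binding site nor a cause of the values below.

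Levels are given as log2 of the background-corrected spot signal minus the 75th percentile of its array, so that 0 marks that percentile and the level of a probe can be followed across arrays but not set against another probe. The array error is the scanner software's error for the spot, between 0.20 and 0.22 on the log2 scale for a difference between a pair of arrays in 9 members and between 0.22 and 0.54 for H2-Aa, and it covers the array only. With 1 array per group, no test between groups was possible, and a gene is counted as higher or lower where it differed at least 2-fold between the arrays compared. Between 72.9% and 86.1% of probes were well above background on an array by the scanner's flag. Of the 12 member probes, 11 were so on all 6 arrays, and the exception was H2-Aa at 1 dpi. MEF and 1 dpi shared 1 of the 2 scans, and 3, 5 and 7 dpi and neurons shared the other, so for 3, 5 and 7 dpi and for neurons the difference from MEF and the scan cannot be told apart. Tet3 itself had a log2 level of -0.72 in neurons. In MEF it had -0.23, and at 1, 3, 5 and 7 dpi it had 1.13, 1.73, 2.57 and 0.07. Its level on the last of these thus lay near that of MEF, and the array is therefore called 7 dpi by its label alone. Whether the Tet3 probe lies in the delivered sequence was not tested. As a check of the cell labels, the summed scaled signal (the sum over genes of signal divided by the array's 75th percentile) of 8 neuron markers was 72.1 in neurons and 1.05 in MEF. That of 7 fibroblast markers was 20.5 in neurons and 389 in MEF. It stayed between 299 and 463 at 1 to 7 dpi, while the neuron markers summed to 1.56, 3.29, 5.30 and 14.6.

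Over the Tet3 time course, the transporter gene Tap1 was the class I member that differed at least 2-fold from MEF, and it did so on all 4 arrays. Its log2 level was -1.86 in MEF, -0.39 at 1 dpi, -0.19 at 3 dpi, -0.18 at 5 dpi and -0.36 at 7 dpi. The 4 treated arrays differed from each other by about the array error and stood well above MEF, with folds of 2.77, 3.18, 3.20 and 2.83 over MEF. The first of these compares arrays of the same scan. In whole cultures such as these, a lower share of cells with a transcript and less of it per cell cannot be told apart, and neither can their opposites. Tap1 was printed as 10 spots, whose SD was between 0.041 and 0.078 on the log2 scale, a measure of spread within an array. Tap2, its partner subunit, had log2 levels of 0.64 in MEF, 1.06 at 1 dpi, 0.89 at 3 dpi, 1.02 at 5 dpi and 1.22 at 7 dpi. These were 0.42, 0.25, 0.38 and 0.58 above MEF, so none reached 2-fold.

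The immunoproteasome subunits differed from MEF by less than 2-fold at every time. Psmb8 had log2 levels of 1.15 in MEF, 1.59 at 1 dpi, 1.91 at 3 dpi, 1.73 at 5 dpi and 1.14 at 7 dpi. Its highest value, at 3 dpi, was 0.76 above MEF, and the array labelled 7 dpi was at the MEF level within the array error. Psmb9 had log2 levels of 0.19 in MEF, 0.45 at 1 dpi, 0.57 at 3 dpi, 0.55 at 5 dpi and -0.03 at 7 dpi. For both genes the order of the arrays from low to high was 7 dpi, MEF, 1 dpi, 5 dpi and 3 dpi, and 1, 5 and 3 dpi were neighbours within the array error of a difference. Between 7 dpi and MEF the gap exceeded that error for Psmb9, at a log2 difference of -0.22, and not for Psmb8, at -0.01.

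The class I chains stayed near the MEF level at 1, 3 and 5 dpi. B2m had log2 levels of 6.25 in MEF, 6.58 at 1 dpi, 6.16 at 3 dpi, 6.63 at 5 dpi and 6.23 at 7 dpi. Its differences from MEF were 0.33, -0.09, 0.38 and -0.02, none of them 2-fold. The heavy chain gene H2-K1 had log2 levels of 5.29 in MEF, 5.21 at 1 dpi, 5.30 at 3 dpi, 5.59 at 5 dpi and 4.82 at 7 dpi. A second probe carrying its name gave 4.44, 4.24, 4.33, 4.55 and 3.66 in the same order. H2-D1 had log2 levels of 5.44 in MEF, 5.40 at 1 dpi, 5.38 at 3 dpi, 5.51 at 5 dpi and 4.61 at 7 dpi. The 3 heavy chain probes were thus lowest on the array labelled 7 dpi among these 5 arrays, with log2 differences from MEF of -0.47 and -0.79 for the H2-K1 probes and -0.83 for H2-D1. Class I heavy chain genes are near-identical copies and differ between MHC haplotypes. Which copies and alleles of ICR mice each probe detects was not tested, so the values of H2-K1 and H2-D1 are uncertain as to the gene.

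**Figure D1:**
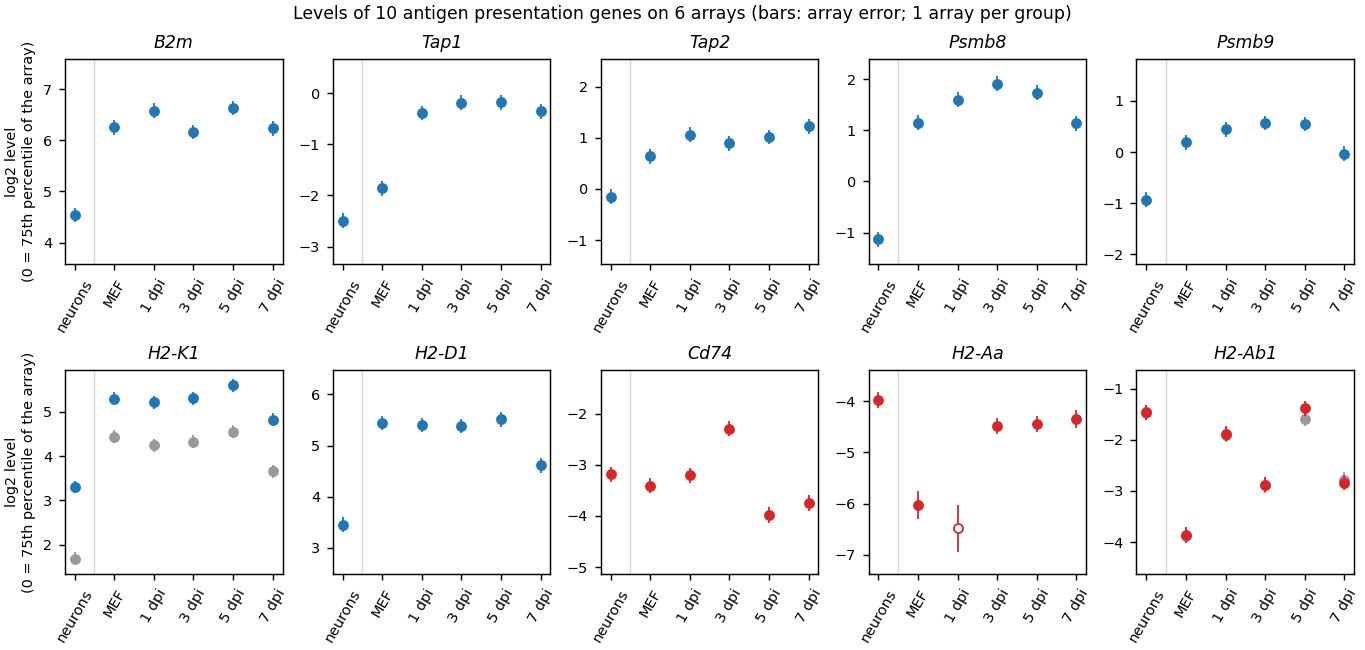
Log2 level of each member (y axis, 0 at the 75th percentile of the array) on the 6 arrays (x axis), for the class I pathway in blue and class II in red. Bars give the array error, grey points the second probe of H2-K1 and H2-Ab1, and the open point a probe not well above background; each panel has its own range. The neuron point is the lowest of the 6 for all 7 class I members, and the Tap1 points of 1 to 7 dpi stand together above MEF.

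The class II members had levels below the 75th percentile on every array, and H2-Aa and H2-Ab1 were higher than in MEF on most treated arrays. H2-Aa had log2 levels of -6.03 in MEF, -6.48 at 1 dpi (not well above background), -4.48 at 3 dpi, -4.44 at 5 dpi and -4.35 at 7 dpi. At 3, 5 and 7 dpi it was 2.92-fold, 3.00-fold and 3.21-fold higher than in MEF. Where 1 array is not well above background, the fold is a bound that takes the higher of its signal and the lowest signal among probes above background on that array. For H2-Aa at 1 dpi this bound was at least 1.09-fold lower than in MEF. H2-Ab1 had log2 levels of -3.86 in MEF, -1.88 at 1 dpi, -2.88 at 3 dpi, -1.38 at 5 dpi and -2.84 at 7 dpi. Its second probe gave -3.87, -1.91, -2.89, -1.60 and -2.78 in the same order. Both probes thus showed H2-Ab1 higher on all 4 treated arrays, at folds of 3.96, 1.98, 5.58 and 2.04 by the first, with 1 and 5 dpi above 3 and 7 dpi.

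Cd74, the invariant chain gene on chromosome 18, did not share this pattern. Its log2 level was -3.41 in MEF, -3.21 at 1 dpi, -2.29 at 3 dpi, -3.98 at 5 dpi and -3.75 at 7 dpi. It was 2.17-fold higher than MEF at 3 dpi and had log2 differences from MEF of -0.57 and -0.34 at 5 and 7 dpi. Between 3 and 5 dpi, both read in the same scan, Cd74 was 3.23-fold lower at 5 dpi, while H2-Ab1 was 2.82-fold higher and H2-Aa differed by 0.04. Neuronal medium with forskolin was added on days 3 and 5, so medium and time cannot be told apart in that step.

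Counted over all 10 genes, 2 were at least 2-fold higher at 1 dpi than in MEF (Tap1 and H2-Ab1), against a background of 5.38% of all genes with a value in that comparison. At 3 dpi 3 were higher (Tap1, Cd74 and H2-Aa), where the background was 16.3%. At 5 dpi 3 were higher (Tap1, H2-Aa and H2-Ab1), where it was 17.9%, and at 7 dpi the same 3 genes, where it was 17.0%. None of the 10 was at least 2-fold lower at any time, and the background of lower genes was 5.97%, 9.83%, 8.22% and 6.84% at 1, 3, 5 and 7 dpi. Past 4-fold, 0, 0, 1 and 0 members were higher at 1, 3, 5 and 7 dpi, the 1 being H2-Ab1, against backgrounds of 1.06%, 2.86%, 3.99% and 4.17%. None was lower past 4-fold, where the backgrounds were 1.33%, 3.97%, 3.22% and 3.06%. The members' median log2 difference from MEF was 0.33, 0.25, 0.38 and -0.02 for class I, and 0.21, 1.12, 1.59 and 1.03 for class II. The median over all genes was 0.07, 0.20, 0.20 and 0.16. Small class I differences depended on the scaling: with each array centred on its median, the class I median at 3, 5 and 7 dpi was -0.046, -0.028 and -0.46, where the median of all genes was -0.10, -0.20 and -0.28. Under that centring B2m, Tap2, Psmb9, H2-K1 and H2-D1 lay below MEF at 5 dpi. In the main scaling and under the other 5 alternatives they lay above MEF at 5 dpi. Tap1 was at least 2-fold higher than MEF at each of the 4 times under all 6 alternative settings, as was H2-Ab1 at 1 and 5 dpi, while H2-Aa at 3, 5 and 7 dpi kept the 2-fold difference under 4 of the 6. Cd74 at 3 dpi and H2-Ab1 at 7 dpi kept it under 3 of the 6, and with quantile normalization, median centring and normexp they lay 0.81, 0.82 and 0.88, and 0.52, 0.58 and 0.74, above MEF on the log2 scale.

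The position of the class II members among dim genes bears on these values. When genes were put in 4 equal classes by their mean level over the 6 arrays, H2-Aa lay in the dimmest, Cd74 and H2-Ab1 in the next, and the class I members in the upper 2. In the class of Cd74 and H2-Ab1, 8.08%, 26.6%, 29.9% and 29.5% of genes with a value were at least 2-fold higher at 1, 3, 5 and 7 dpi than in MEF. In that of H2-Aa the shares were 11.3%, 29.0%, 33.6% and 42.9%. Higher signals on the later arrays were therefore common among dim probes. With normexp background correction on the median signals, H2-Aa at 3 dpi was 0.59 above MEF on the log2 scale and H2-Ab1 at 5 dpi was 2.05 above it. The part of background correction in the class II differences beyond these values was not tested.

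**Figure D2:**
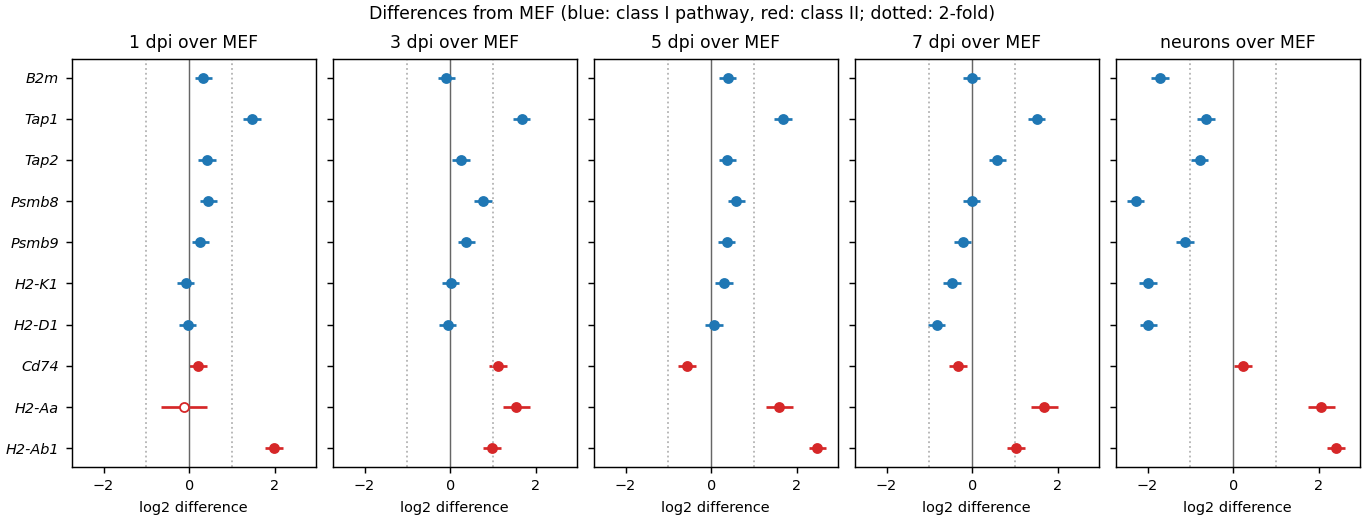
Log2 difference from MEF (x axis) of each member (rows) at 1, 3, 5 and 7 dpi and in neurons, with the array error as bars, the class I pathway in blue and class II in red. The open point is a bound and dotted lines mark 2-fold; Tap1 is the blue point beyond 2-fold at 1 to 7 dpi, and 5 of the 7 blue points lie beyond it on the lower side in neurons.

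In primary neurons the class I pathway was lower than in MEF throughout, by more than the array error for each of the 7 genes. B2m had a log2 level of 4.54 in neurons and 6.25 in MEF, a level 3.27-fold lower. H2-K1 had 3.31 in neurons and 5.29 in MEF (3.96-fold lower), and H2-D1 had 3.46 in neurons and 5.44 in MEF (3.96-fold lower). The second H2-K1 probe had 1.69 in neurons and 4.44 in MEF. All 4 chain probes thus differed in the same direction. Psmb8 had -1.13 in neurons and 1.15 in MEF, a level 4.86-fold lower, and Psmb9 had -0.93 in neurons and 0.19 in MEF, a level 2.18-fold lower. The transporter genes differed least: Tap1 had -2.49 in neurons and -1.86 in MEF, and Tap2 had -0.15 in neurons and 0.64 in MEF. Those are log2 differences of -0.63 and -0.79, short of 2-fold. All 7 genes were lower in neurons under each of the 6 alternative settings, with a class I median between -2.51 and -1.27.

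The class II members did not share that direction in neurons. H2-Aa had a log2 level of -3.98 in neurons and -6.03 in MEF, a level 4.15-fold higher. H2-Ab1 had -1.46 in neurons and -3.86 in MEF, a level 5.29-fold higher, and its second probe had -1.48 in neurons and -3.87 in MEF. Cd74 had -3.19 in neurons and -3.41 in MEF, which differ by about the array error and in the opposite direction under 2 alternative settings. H2-Aa and H2-Ab1 were higher in neurons under all 6, H2-Aa by 0.75 on the log2 scale after quantile normalization. Thus 2 of the 10 members were higher in neurons than in MEF by at least 2-fold, against a background of 30.3%, and 5 were lower, against a background of 16.1%. In the brightest of the 4 classes, which holds 5 of the 7 class I members, 25.9% of genes were lower. Past 4-fold these counts were 2 higher and 1 lower (Psmb8), against 13.5% and 6.77%. Among genes as dim as Cd74 and H2-Ab1, 47.9% were at least 2-fold higher in neurons, and among those as dim as H2-Aa, 59.1%. The median log2 difference was -1.71 for class I and 2.05 for class II, and 0.26 for all genes.

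The array labelled 7 dpi and the neuron array were in the same scan, and their direct comparison set the induced cells against the cells they are named for. The class I members were higher at 7 dpi, 6 of them at least 2-fold, and 1 class II member was at least 2-fold lower; the background was 13.9% higher and 19.6% lower. Past 4-fold, 2 were higher (Psmb8 and Tap1) and 0 lower, against 5.15% and 8.86%. In the brightest class 21.3% of genes were at least 2-fold higher. Psmb8 was 4.82-fold higher at 7 dpi than in neurons, Tap1 4.38-fold, B2m 3.23-fold, H2-K1 2.86-fold, Tap2 2.59-fold and H2-D1 2.23-fold. Psmb9 was 0.90 higher on the log2 scale, short of 2-fold. H2-Ab1 was 2.60-fold lower at 7 dpi than in neurons, and Cd74 and H2-Aa had log2 differences of -0.56 and -0.37. The median log2 difference was 1.51 for class I, -0.56 for class II and -0.05 for all genes.

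Within that scan, the class I genes could also be followed from 3 to 7 dpi without a change of scan. Between 3 and 5 dpi no class I member differed 2-fold, and the counts over all 10 were 1 higher (H2-Ab1) and 1 lower (Cd74) against backgrounds of 8.10% and 4.53%. Between 5 and 7 dpi 6 of the 7 class I members were lower at 7 dpi, with log2 differences of -0.90 for H2-D1, -0.78 for H2-K1, -0.60 for Psmb8, -0.58 for Psmb9, -0.40 for B2m and -0.18 for Tap1, while Tap2 was 0.21 higher. The first 5 exceeded the array error and those of Tap1 and Tap2 were about as large as it. These 7 directions were the same under all 6 alternative settings. None reached 2-fold, and 1 class II member did, since H2-Ab1 was 2.74-fold lower at 7 dpi than at 5 dpi. The background for that pair was 5.87% higher, with 0 members, and 4.72% lower. The median log2 difference at 7 dpi over 5 dpi was -0.58 for class I, 0.10 for class II and -0.01 for all genes. Neuronal medium with forskolin was added on days 3 and 5, and the labels leave unsaid if the 3 and 5 dpi cells were taken before or after it. Medium and time therefore cannot be told apart from 3 to 5 dpi or from 5 to 7 dpi.

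Of 17 further class I genes listed by name, 14 were on the array, and the lower heavy chain values at 7 dpi extended to several of them. On the array labelled 7 dpi 6 of the 14 were at least 2-fold lower than at 5 dpi and 0 higher, against backgrounds of 4.72% and 5.87%, with a median log2 difference of -0.93 against -0.01 for all genes. H2-Q8, a Qa-2 family gene, was 6.27-fold lower at 7 dpi than at 5 dpi. It had been 5.54-fold higher at 5 dpi than in MEF. H2-Q7 and H2-Q6, of the same family, were 2.19-fold and 2.14-fold lower than at 5 dpi, and H2-T23, which encodes the Qa-1 heavy chain, had a log2 difference of -0.91. H2-T3 and H2-Q1 were well above background at 5 dpi and not at 7 dpi, which gave bounds of at least 3.21-fold and at least 2.20-fold lower. H2-M3, which presents N-formylated peptides, was 0.32 higher at 7 dpi, so the list did not move as a whole. The H2-Q genes are near-identical in sequence, and whether several of these probes detect the same RNA was not tested.

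In neurons 7 of these 14 genes had levels at least 2-fold below MEF and 1 had a higher one, of 13 with a value, against backgrounds of 16.1% and 30.3%. H2-M3 was 13.8-fold lower in neurons than in MEF, H2-T23 8.25-fold and H2-Q6 6.43-fold. The higher gene was H2-Q1, which was not well above background in MEF and exceeded it in neurons by at least 3.62-fold. The 7 dpi array had 7 of 13 at least 2-fold higher than neurons and 1 lower, against 13.9% and 19.6%, among them H2-T10 at 8.19-fold and H2-M3 at 7.84-fold higher.

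**Figure D3:**
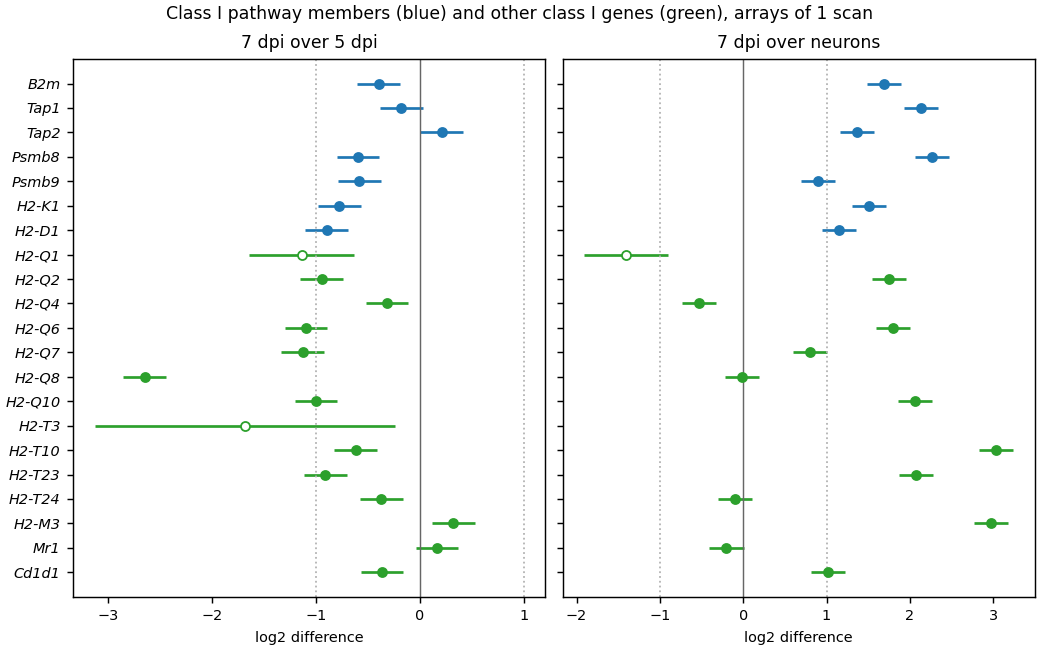
Log2 difference (x axis) of the class I pathway members in blue and the other class I genes in green (rows), at 7 dpi over 5 dpi on the left and at 7 dpi over neurons on the right, with the array error as bars. Open points are bounds, dotted lines mark 2-fold, and a gene at background on both arrays has no point; most points lie below 0 against 5 dpi and above 0 against neurons.

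The genes that load class I peptides were measured by a list of 6. Of these, none was at least 2-fold higher than MEF at 1, 3, 5 or 7 dpi, against backgrounds of 5.38%, 16.3%, 17.9% and 17.0%. At the same times 0, 0, 1 and 0 were lower, against 5.97%, 9.83%, 8.22% and 6.84%. The lower gene at 5 dpi was the trimming peptidase gene Erap1, with a log2 difference of -1.21. With 6 genes, such counts do not set the list apart from these shares. Tapbp, which encodes the tapasin that bridges Tap1 and the heavy chain, was 0.87 above MEF on the log2 scale at 3 dpi and was 2.84-fold lower at 5 dpi than at 3 dpi. In neurons, Erap1 and Tapbp were 2.24-fold and 2.10-fold lower than in MEF. They were the 2 of the 6 genes lower there, against a background of 16.1%, and 0 were higher, against 30.3%. The array labelled 7 dpi had Calr 2.53-fold, Pdia3 2.18-fold and Erap1 2.07-fold higher than neurons. These were 3 of the 6 genes, against a background of 13.9%, and 0 were lower, against 19.6%.

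Among 7 further proteasome genes the 3 constitutive catalytic subunits that the immunoproteasome replaces, Psmb5, Psmb6 and Psmb7, differed from MEF in neurons by -0.24, -0.05 and 0.17 on the log2 scale. The third inducible subunit, Psmb10, was 2.65-fold lower in neurons than in MEF and the activator subunit Psme2 2.04-fold lower. Psme3, which encodes another activator subunit, was 2.95-fold lower at 1 dpi, 4.86-fold lower at 3 dpi and 3.89-fold lower in neurons than in MEF. At 5 and 7 dpi its log2 level was 0.29 and 0.59, against 1.04 in MEF, short of 2-fold. Of the 7 genes, 1, 1, 0 and 0 were at least 2-fold lower than MEF at 1, 3, 5 and 7 dpi, against backgrounds of 5.97%, 9.83%, 8.22% and 6.84%. In neurons 3 were lower, against 16.1%. None was higher at these times or in neurons, against 5.38%, 16.3%, 17.9%, 17.0% and 30.3%. Psmb10 was not higher on the treated arrays, at log2 differences of -0.30, -0.20, -0.88 and -0.33 at 1, 3, 5 and 7 dpi.

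Other class II genes did not follow H2-Aa and H2-Ab1 as a group. Of 14 listed, 13 were on the array, and the counts at least 2-fold higher and lower than MEF were 1 and 3 at 1 dpi, 2 and 3 at 3 dpi, 2 and 4 at 5 dpi and 3 and 5 at 7 dpi. The backgrounds of higher genes were 5.38%, 16.3%, 17.9% and 17.0% and those of lower genes 5.97%, 9.83%, 8.22% and 6.84%, and 11 or 12 genes of the list had a value at each time. H2-Eb1, the other beta chain, lay 0.97, 1.14, 1.45 and 1.00 above MEF on the log2 scale at the 4 times. Cd40, a receptor that activates antigen-presenting cells, was 9.50-fold, 7.65-fold, 6.55-fold and 5.03-fold higher than in MEF. Ctss, the protease that degrades the invariant chain in antigen-presenting cells, was 3.83-fold, 12.3-fold, 85.8-fold and 396-fold lower than in MEF. H2-DMb1, a chain of the peptide editor H2-DM, was 13.2-fold lower at 5 dpi and at least 14.9-fold lower at 7 dpi. The costimulatory gene Cd86 was 8.76-fold lower at 3 dpi, at least 36.5-fold lower at 5 dpi and at least 23.9-fold lower at 7 dpi.

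Macrophage markers were high on the MEF array and lower on the others. Of 16 listed, 15 were on the array, and 14 had a value at each of 1, 3, 5 and 7 dpi. Against backgrounds of 5.97%, 9.83%, 8.22% and 6.84% at these times, 12, 12, 13 and 13 of the markers were at least 2-fold lower than MEF. Their summed scaled signal was 289 in MEF, 59.8 at 1 dpi, 35.2 at 3 dpi, 10.6 at 5 dpi and 8.04 at 7 dpi, and it was 22.2 in neurons. At 7 dpi Mrc1, Cd163 and Laptm5 were not well above background, and Cd163 was above it on the 3 dpi array alone. Itgam, an integrin gene also used by other myeloid cells, departed from the other markers, with log2 differences from MEF of 0.36, 0.85, -0.40 and -0.78 at 1, 3, 5 and 7 dpi and 0.94 in neurons. Without Itgam, a sum taken after seeing these values, the markers came to 279 in MEF, 46.9 at 1 dpi, 17.0 at 3 dpi, 2.93 at 5 dpi and 2.17 at 7 dpi, and to 2.92 in neurons. At 3, 5 and 7 dpi, where this sum was lower than in MEF, H2-Aa and H2-Ab1 were higher, and at 1 dpi H2-Ab1 was higher while H2-Aa was at background. Dendritic cell markers had sums of 0.29 in MEF, 0.32, 0.55, 0.55 and 0.58 at 1, 3, 5 and 7 dpi, and 0.70 in neurons. In the same order B cell markers had 0.19, 0.18, 0.28, 0.30, 0.27 and 0.30, and T and NK cell markers 1.53, 1.80, 2.28, 2.46, 2.08 and 2.35. These low sums were thus higher at 3, 5 and 7 dpi and in neurons than in MEF. The dendritic markers Clec9a and Cd209a were well above background on those arrays and not in MEF or at 1 dpi. Xcr1, Ms4a1, Cd3g and Ncr1 were not well above background on any array. Which cells held the class II transcripts was not tested.

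**Figure D4:**
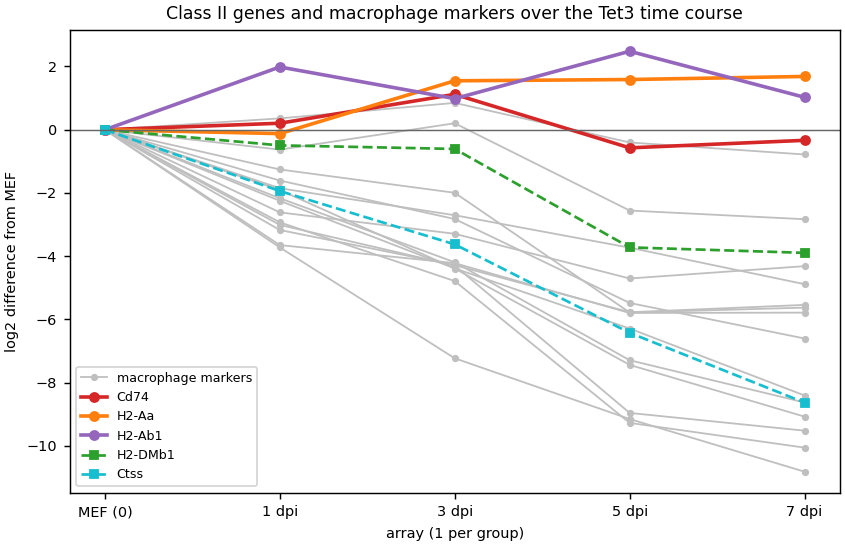
Log2 difference from MEF (y axis) on the 1, 3, 5 and 7 dpi arrays (x axis, MEF set to 0) for the class II members (thick lines), H2-DMb1 and Ctss (dashed) and macrophage markers (grey, 14 with a value). Values of genes at background on 1 array are bounds; H2-Aa and H2-Ab1 lie above MEF at 3, 5 and 7 dpi while Ctss and 13 of the 14 markers lie at least 2-fold below it at 5 dpi.

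Regulators of the pathway were measured by 16 listed transcription factor genes. Of these, 0, 1, 1 and 1 were at least 2-fold higher than MEF at 1, 3, 5 and 7 dpi. The backgrounds were 5.38%, 16.3%, 17.9% and 17.0%, which these counts did not exceed. At the same times 1, 3, 2 and 3 were lower, against backgrounds of 5.97%, 9.83%, 8.22% and 6.84%, and the count at 1 dpi was near that share. Ciita, the class II transactivator, had log2 differences from MEF of -0.12, -0.60, -1.09 and -1.28 at 1, 3, 5 and 7 dpi and -1.22 in neurons. Ciita was thus lower on the arrays where H2-Aa and H2-Ab1 were higher. Rfx5, another factor of the list, differed in the other direction. Its log2 level was -5.11 in MEF, -4.95, -4.09, -4.30 and -4.12 at 1, 3, 5 and 7 dpi, and -4.13 in neurons. The listed regulators thus did not share 1 direction, and their part in the class II values was not tested. Nlrc5, the class I transactivator, had differences of -0.29, 0.18, 0.01 and -1.09 at the 4 times, and was 2.14-fold lower at 7 dpi than at 5 dpi. Irf8, a factor of the myeloid lineage, was 4.88-fold lower than MEF at 1 dpi and 89.9-fold lower at 7 dpi. Irf1, an interferon-responsive factor, had log2 differences of -0.92, -1.02, -0.98 and -0.51 at 1, 3, 5 and 7 dpi.

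Of 11 listed genes that respond to interferon gamma, 4, 4, 7 and 7 were at least 2-fold higher than MEF at 1, 3, 5 and 7 dpi, against backgrounds of 5.38%, 16.3%, 17.9% and 17.0%. At the same times 0, 1, 0 and 0 of them were at least 2-fold lower, the 1 being Irf1. The backgrounds of lower genes were 5.97%, 9.83%, 8.22% and 6.84%. In neurons 3 were higher and 2 lower, against 30.3% and 16.1%, which is near the background in both directions. The chemokine gene Cxcl10 was 8.66-fold, 14.0-fold, 28.4-fold and 23.9-fold higher than MEF at the 4 times, and 19.0-fold higher in neurons. Gbp3, a guanylate-binding protein gene, was 2.67-fold, 3.00-fold, 5.90-fold and 9.11-fold higher at the 4 times. The signal for the cytokine itself, Ifng, was not well above background on any fibroblast or Tet3 array but was so in neurons. Ifnb1 was above it at 7 dpi alone, and Ifna4 at 3, 5 and 7 dpi. Of 11 listed genes of interferons, their receptors and signalling, 8, 9, 9 and 10 had a value at 1, 3, 5 and 7 dpi. Of these, 0, 1, 0 and 1 were at least 2-fold higher than MEF and 1, 3, 1 and 1 lower, against the backgrounds given above for these times. The receptor gene Ifnar1, the lowest of the list against MEF at 1, 3 and 5 dpi, had log2 differences of -1.90, -2.56, -2.30 and -0.97 at 1, 3, 5 and 7 dpi.

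The genes whose profiles lay closest to the members' were found as the smallest root mean square distance over the 6 arrays, each profile centred on its own mean, among 18490 genes well above background on at least 2 arrays. The mean class I profile was closest to Ryk at 0.093, Ccne1 at 0.094, Tmf1 at 0.096, Hspa9 at 0.098, Rpl28 at 0.099, Tbrg1 at 0.099, Luc7l at 0.100 and Gm9079 at 0.102 on the log2 scale. The mean class II profile was closest to Cd59b at 0.065, Nectin1 at 0.072, 4930562F07Rik at 0.087, Olfr1262 at 0.087, Gm2447 at 0.098, Lancl2 at 0.099, Olfr159 at 0.100 and Dhtkd1 at 0.102. None of these 16 is in the pathway lists above. Taken singly, H2-D1 was closest to H2-K2 at 0.101, H2-Q7 at 0.128 and Pwwp2b at 0.130. Tap1 was closest to Xaf1 at 0.201, a gene known to respond to interferon, and next to Prl2c5 at 0.210. For the other members the closest gene was outside the pathway lists. It was Lzts2 for B2m, Abcc10 for Tap2, Creb3l2 for Psmb8, Slc44a2 for Psmb9 and Bcl2l11 for H2-K1. For Cd74 it was Adamts1, for H2-Aa Cyp4a30b and for H2-Ab1 Slc2a4. The members did not share 1 profile, and Tap1 lay 0.46 from the mean class I profile, against 0.16 for B2m. The class II members lay 0.60 to 0.66 from their own mean profile.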

How the data were processed

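Total RNA of the 6 samples was labelled with Cy3 and hybridised to 1 Agilent array each. Per the submitters' processing notes, Agilent Feature Extraction was used by the authors in version 11.0.1.1 to read the spots; per the file headers, the deposited intensity columns hold background-corrected processed signals with their error, and the flags that mark spots well above background, saturated or outlying. The authors' deposited series table holds log2 values scaled to the 75th percentile of each array (medians between -3.30 and -2.50); its member probes differed from the values computed here by at most 0.0057. The genome build used to design the array was not used here.

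From the intensities, log2 values minus each array's 75th percentile were computed over 39409 probes in Python 3.11.15 with numpy 2.4.6 and pandas 2.3.3. Spots of a probe were averaged, and a symbol was given through the RefSeq accession to 27222 probes (69.1%). For genes with several probes the brightest by mean was used. Figures were drawn with matplotlib 3.10.9. With 1 array per group the precision is limited by the number of arrays, and no test was made.

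The members, lists and alternatives were chosen with earlier results of these data known. Named are all members, genes of the pathway and marker lists, and the 8 nearest profiles of the mean class I and class II profiles; the nearest profiles of single members were added. The name and values of 1 listed gene are not reported here, although the counts of its lists include it. The alternatives were quantile normalization, median centring and normexp background correction with an offset of 50, the last with limma 3.58.1. The others were the mean over probes, no bound for dim probes, the authors' table and a 4-fold threshold. The comparisons of 5 with 3 dpi and of 7 with 5 dpi, every probe counted alone and the macrophage sum without Itgam were chosen after seeing the data.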

Additional observations from a re-analysis of the deposited data

How the results depend on the processing

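Quantile normalization, median centring, normexp correction and the 4-fold threshold moved results, while the authors' table, the mean over probes and the absence of a bound for dim probes moved no median or count. The cause of each move was not tested, apart from the stricter threshold, which by construction counts fewer genes. The class II median was 0.88 at 1 dpi over MEF with normexp. At 3 dpi over MEF it was 0.81 with quantile normalization, 0.82 with median centring and 0.61 with normexp, at 5 dpi 0.81, 1.18 and 0.77, at 7 dpi 0.52, 0.58 and 0.74, and in neurons over MEF 0.75, 1.25 and 1.04. At 7 dpi over neurons it was -0.14 with quantile normalization and -0.20 with median centring. The class I median with median centring was -0.046, -0.028 and -0.46 at 3, 5 and 7 dpi over MEF, -2.51 in neurons over MEF and 1.88 at 7 dpi over neurons. With quantile normalization it was -1.27 in neurons over MEF and 1.25 at 7 dpi over neurons. Members higher with the 4-fold threshold numbered 0, 0, 1 and 0 at 1, 3, 5 and 7 dpi over MEF and 2 at 7 dpi over neurons, and members lower numbered 1 in neurons over MEF and 0 at 7 dpi over neurons. Members at least 2-fold higher numbered 1 at 3 dpi and 1 at 7 dpi over MEF with both quantile normalization and normexp, and 1 in neurons over MEF with quantile normalization. Members at least 2-fold lower numbered 1 at 5 dpi over MEF with quantile normalization (Cd74) and 1 at 7 dpi over MEF with median centring (H2-D1). The median of all genes in neurons over MEF was 0.26 in the main scaling, -0.06 with quantile normalization and -0.59 with median centring. No paired analysis was possible because each group has 1 array, so no fit could hold a replicate as a block. For H2-Aa at 1 dpi, normexp with the bound gave no value where the other 5 alternatives did.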
